A study of Mus musculus with 5 samples.

Results

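A set of 9 genes that move iron through hepatocytes was followed across 5 single-cell RNA-seq libraries of mouse liver. They are Tfrc, Tfr2 and Slc39a14 (uptake), Trf, Hpx and Cp (secreted carriers and a ferroxidase), Fth1 and Ftl1 (storage) and Slc40a1 (export). These 9 of 31053 genes in the count tables were chosen by name for their roles, with earlier results of these data known. All 9 had UMIs in the hepatocytes of every library. All mice were C57BL/6J. One group was normal mice at postnatal day 14 (P14) and a second was adult control mice. The other groups were adults sampled 24 h (PHx24), 48 h (PHx48) or 96 h (PHx96) after partial hepatectomy (PHx), which takes out most of the liver. Each group had 1 library, so no difference below has a replicate check and no test between groups was possible. The sources used here give neither the number nor the sex of the animals. The treatment protocol gives 8 weeks as the age of all adult mice and counts the adult control among operated ones, whereas its title and source call it a control, and it was treated as the control. The description of the adult control carries lane code 2 and those of the others code 1, so lane and control status cannot be told apart.

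A barcode counted as a hepatocyte when it had at least 5000 UMIs (unique molecular identifiers, each marking 1 captured transcript), 10% to 30% mitochondrial UMIs, and at least 1% of its UMIs from Alb, Apoa1 and Ttr. The gate took 925 of 2639 barcodes of at least 5000 UMIs in the adult control, 1170 of 2985 in PHx24, 719 of 2549 in PHx48, 771 of 3624 in PHx96 and 2106 of 2907 in P14. Barcodes that met the UMI and marker limits but lay above 30% mitochondrial UMIs numbered 501 in the adult control, 462, 363 and 1701 after PHx, and 446 in P14. Those below 10% numbered 150, 328, 176, 684 and 124 in that order. In PHx96 the gate thus left out more such barcodes than it kept. No alternative setting raised the 30% limit. Libraries held 80927744 to 136110607 UMIs, and median hepatocyte depth was 18527 UMIs in the adult control, 19562, 35432 and 22075 in PHx24, PHx48 and PHx96, and 38922.5 in P14. The median share of Alb, Apoa1 and Ttr was 2.86% in the adult control, 2.10%, 2.62% and 5.77% after PHx, and 11.2% in P14, a share that the gate itself bounds from below. The label was therefore read from 5 hepatocyte markers that the gate did not use (Serpina1c, Apoc3, Fgb, Cyp3a11 and Ttc36). All 5 had UMIs in each library, and they summed per 1000000 non-mitochondrial UMIs to 16126 in gated cells of the adult control, 20012, 23285 and 18942 after PHx and 13280 in P14, against 771.8 to 3041 in T or NK-like cells and 11281 to 16694 in free RNA. In PHx24, 494 hepatocytes lay just inside the gate, between 1% and 2%. Droplets on the plateau of empty droplets held a mean of 1328 UMIs in the adult control and 290.0 to 794.8 in the other libraries, which is 0.818% to 7.17% of the UMIs of a median hepatocyte. Any 2 libraries shared at most 2 hepatocyte barcodes. The P14 hepatocytes carried 54268 UMIs of Xist, the RNA that coats the inactive X chromosome, and 0 of the Y-linked genes Ddx3y and Eif2s3y. The 4 adult libraries had 0 or 1 UMI of Xist and 1490 to 2724 of Ddx3y, so age and sex cannot be told apart in any comparison with P14.

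Iron reaches hepatocytes bound to transferrin (Trf), which is taken up by transferrin receptor 1 (Tfrc), or unbound through the transporter Slc39a14 (ZIP14). Transferrin receptor 2 (Tfr2) binds the same ligand and takes part in sensing iron for control of hepcidin (Hamp), the hormone that closes the only known iron exporter, ferroportin (Slc40a1). Inside the cell, ferritin shells of heavy (Fth1) and light (Ftl1) chains store iron, and outside it ceruloplasmin (Cp) oxidizes iron for loading onto transferrin while hemopexin (Hpx) carries free haem to the liver. Several of these messages hold iron-responsive elements, short hairpins bound by iron-regulatory proteins when iron is scarce. A hairpin in the 5' UTR then blocks translation, and hairpins in the 3' UTR protect the message from decay.

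The elements are shown because they divide the 9 genes by the kind of control their messages can carry. They were searched in GENCODE M21 transcripts (GRCm38, the mm10 assembly) as a C, 5 bases, CAGTGN and 5 further bases, with at least 4 of 5 arm bases paired, G-T pairs counted. Capitals mark the bulged C and the 6-base loop, and each site is 30 bases, 5′ to 3′ on the strand of the gene.
Fth1, 5' UTR exon, chr19:9982732-9982761, plus strand: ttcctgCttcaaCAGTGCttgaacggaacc
Ftl1, 5' UTR exon, chr7:45459778-45459807, minus strand: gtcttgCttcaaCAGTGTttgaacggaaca
Slc40a1, 5' UTR exon, chr1:45925464-45925493, minus strand: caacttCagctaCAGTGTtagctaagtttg
Tfrc, 3' UTR exon, chr16:32631219-32631248, plus strand: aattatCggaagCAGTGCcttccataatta
Tfrc, 3' UTR exon, chr16:32631598-32631627, plus strand: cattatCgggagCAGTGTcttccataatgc
Tfrc, 3' UTR exon, chr16:32631663-32631692, plus strand: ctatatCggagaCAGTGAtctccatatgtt
Tfrc, 3' UTR exon, chr16:32631710-32631739, plus strand: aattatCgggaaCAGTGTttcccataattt
All 7 sites had 5 of 5 arm bases paired. The pattern occurs in the 5' UTR of 206 of 20916 genes (0.985%) and in the 3' UTR of 872 of 21039 (4.14%). In a window as long as the 3' UTR of Tfrc (2458 bases), 8 of 3988 genes (0.201%) hold 2 or more, and Tfrc holds 4. No UTR of Tfr2, Slc39a14, Trf, Hpx or Cp held the pattern, which says only that these letters are not in those annotated UTRs.

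Levels below are UMIs summed over the hepatocytes of a library and scaled to 1000000 non-mitochondrial UMIs (CPM). Ranges in parentheses are exact 95% intervals, which cover counting error only and treat UMIs or cells as independent. A difference is called when the log2 ratio, with 1 CPM added to both levels, passes 1.5-fold in a library pair, and the share of all genes with 5 CPM or more in 1 of the 2 libraries that passes it is given beside the count.

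Among the uptake genes, Tfrc (ENSMUSG00000022797, chr16:32608920-32632794, GRCm38) differed most. It stood at 15.5 CPM (13.4 to 17.7) in the adult control, 54.0 (50.8 to 57.4) in PHx24, 28.2 (25.99 to 30.6) in PHx48, 26.0 (23.3 to 28.8) in PHx96 and 165.4 (162.3 to 168.6) in P14. The adult control was lowest and P14 highest, the intervals of PHx48 and PHx96 overlap, and no other neighbours in this order overlap. Relative to the adult control, Tfrc was 3.49-fold higher (3.00 to 4.07) in PHx24, 1.82-fold (1.55 to 2.15) in PHx48, 1.68-fold (1.41 to 2.00) in PHx96 and 10.7-fold (9.31 to 12.3) in P14. More cells held the transcript as well. Hepatocytes with a Tfrc UMI made up 6.38% (4.89 to 8.15) of the adult control, 18.4% (16.2 to 20.7) in PHx24, 11.5% (9.30 to 14.1) in PHx48, 8.56% (6.68 to 10.8) in PHx96 and 45.1% (43.0 to 47.3) in P14 after each cell was thinned to 5000 UMIs. Over all UMIs of each cell these values became 18.5%, 52.0%, 47.4%, 34.6% and 96.6%. T or NK-like cells of the same libraries, with median depths of 4656 to 7542 UMIs, gave thinned shares of 2.84%, 6.67%, 4.01%, 2.13% and 11.6% in that order, below the hepatocytes of each library. Not every other class, described below, was lower. Siglech-led cells had thinned shares of 19.6%, 45.9%, 45.5% and 56.1% in the adult control, PHx24, PHx48 and PHx96. Cd79a-led B-like cells had 6.52% in the adult control, 14.7% in PHx48 and 6.25% in PHx96. Free RNA, read from the plateau of empty droplets, held 19.9 CPM of Tfrc in the adult control against 8.30 to 27.6 CPM after PHx and 114.2 CPM in P14. Taking the free RNA of 1 droplet off each cell left log2 ratios of 1.81, 0.87, 0.79 and 3.38.

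The other uptake genes varied less. Slc39a14 (ENSMUSG00000022094, chr14:70303469-70351425) was at 228.7 CPM (220.7 to 237.0) in the adult control, 380.7 (372.1 to 389.5) in PHx24, 328.8 (321.0 to 336.6) in PHx48, 210.4 (202.7 to 218.3) in PHx96 and 280.2 (276.1 to 284.3) in P14. Its highest level was thus in PHx24, 1.66-fold above the adult control (1.60 to 1.74), and its lowest in PHx96. Tfr2 (ENSMUSG00000029716, chr5:137569840-137587481) was at 327.3 CPM (317.7 to 337.2) in the adult control and at 265.0, 260.9, 266.8 and 265.8 CPM in PHx24, PHx48, PHx96 and in P14. The 4 lower libraries have overlapping intervals, and all lie 1.23-fold to 1.25-fold below the adult control, which is within the 1.5-fold threshold. Under TMM scaling (a scaling on the bulk of genes) the sign of the Tfr2 difference in P14 turned, from a log2 ratio of -0.30 to 0.04. Tfr2 passed 1.5-fold lower in PHx96 without the lower mitochondrial limit (-0.74) and in PHx48 over the 8 hepatocytes with no UMI of another class's defining markers (-0.95). Slc39a14 passed it lower in PHx96 without that limit (-0.60 instead of -0.12), and higher in PHx48 under TMM scaling (0.61 instead of 0.52) and over the same 8 cells (0.85).

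**Figure D1:**
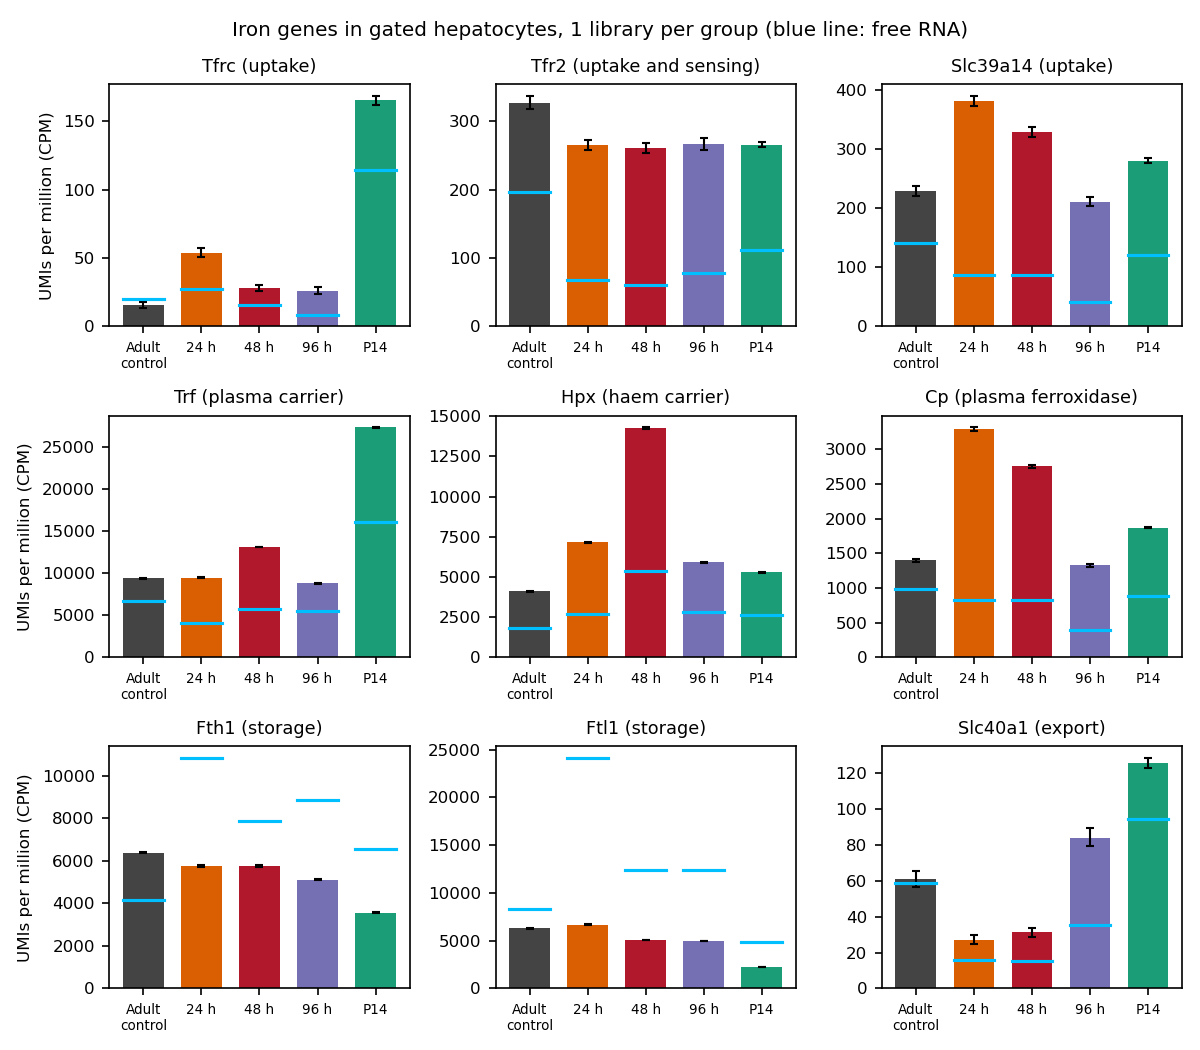
Levels of the 9 genes in gated hepatocytes, in CPM, with 1 bar for each library. Error bars are exact 95% Poisson intervals (counting error only), and blue lines are the level in free RNA. Tfrc and Trf are highest in P14, Hpx in PHx48, Cp and Slc39a14 in PHx24, and Slc40a1 is lowest in PHx24.

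The genes of secreted proteins had their highest levels in different libraries. Hpx (ENSMUSG00000030895, chr7:105591613-105600137), the haem carrier, was at 4098 CPM (4064 to 4133) in the adult control, 7152 (7115 to 7190) in PHx24, 14281 (14230 to 14333) in PHx48, 5922 (5881 to 5963) in PHx96 and 5291 (5274 to 5309) in P14. Hpx was therefore 1.75-fold higher in PHx24 and 3.48-fold higher in PHx48 than in the adult control, with PHx96 and P14 1.44-fold and 1.29-fold higher. Levels per cell moved less than the sum in PHx24. The median hepatocyte had 3446 CPM of Hpx in the adult control, 4502 in PHx24, 11693 in PHx48, 5288 in PHx96 and 4903 in P14. By this measure PHx24 lay below PHx96 and P14, the reverse of the sums. The 25th to 75th percentile spanned 1933 to 5270 CPM in the adult control, 2722 to 7615 in PHx24 and 6513 to 18741 in PHx48. In PHx96 and P14 it spanned 3555 to 8005 and 3922 to 6162 CPM. With the mean over cells, the log2 ratio of PHx24 over the adult control was 0.60 instead of 0.80. The difference between PHx24 and PHx48 depended on the gate. With Alb, Apoa1 and Ttr at 3% of UMIs or more, which left 144 hepatocytes in PHx24, its log2 ratio was 0.43 instead of 1.00 and no longer past 1.5-fold. Under the same gate the log2 ratio of PHx24 over the adult control was 1.41 instead of 0.80. The difference of P14 from the adult control also depended on the setting, with a log2 ratio of 0.37 that was -0.08 under the same gate and 0.71, past 1.5-fold, under TMM scaling. In PHx96 the ratio of 0.53 was 0.13 under that gate and 0.81 with 10% to 20% mitochondrial UMIs.

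Cp (ENSMUSG00000003617, chr3:19957054-20009145), the plasma ferroxidase, was at 1401 CPM (1381 to 1421) in the adult control, 3299 (3273 to 3324) in PHx24, 2758 (2736 to 2781) in PHx48, 1328 (1308 to 1347) in PHx96 and 1870 (1860 to 1881) in P14. Its peak came in PHx24, 2.36-fold (2.32 to 2.39) above the adult control, and in PHx96 it was 1.05-fold below it. Trf (ENSMUSG00000032554, chr9:103204001-103230444), the iron carrier, was at 9387 CPM (9335 to 9440) in the adult control, 9472 (9429 to 9516) in PHx24, 13114 (13065 to 13163) in PHx48, 8807 (8757 to 8857) in PHx96 and 27325 (27284 to 27365) in P14. In PHx48 Trf was 1.40-fold higher than in the adult control, within the threshold but past it with Alb, Apoa1 and Ttr at 3% or more (log2 0.61 instead of 0.48), and in P14 it was 2.91-fold higher (2.89 to 2.93).

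Both ferritin chains were lower in P14 than in any adult library. Fth1 (ENSMUSG00000024661, chr19:9980598-9985098) was at 6387 CPM (6344 to 6430) in the adult control, 5759 (5726 to 5793) in PHx24, 5746 (5714 to 5779) in PHx48, 5115 (5077 to 5154) in PHx96 and 3564 (3550 to 3579) in P14. Ftl1 (ENSMUSG00000050708, chr7:45457944-45459884) was at 6298 CPM (6255 to 6341) in the adult control, 6681 (6645 to 6717) in PHx24, 5066 (5035 to 5096) in PHx48, 4944 (4907 to 4982) in PHx96 and 2233 (2222 to 2245) in P14. Relative to the adult control, Fth1 was 1.79-fold (1.78 to 1.81) and Ftl1 2.82-fold (2.80 to 2.84) lower in P14, and no PHx library passed 1.5-fold for either chain. The direction in PHx96 depended on the mitochondrial limit: without the lower limit the log2 ratios turned from -0.35 to 0.44 for Ftl1 and from -0.32 to 0.12 for Fth1. In PHx24 the small ratio of Fth1 turned from -0.15 to 0.02 in that setting, and that of Ftl1 from 0.09 to -0.11 with Alb, Apoa1 and Ttr at 3% or more. Under TMM scaling, which shifts the median gene in P14 from -0.26 to 0.08 on the log2 scale, Ftl1 remained past the threshold (-1.15) and Fth1 did not (-0.50). Free RNA was richer in Ftl1 than the hepatocytes in each library, with 8331 CPM in the adult control, 24136, 12389 and 12445 CPM after PHx, and 4861 CPM in P14. It was also richer in Fth1 except in the adult control, with 4157 CPM there, 10833, 7865 and 8858 CPM after PHx, and 6562 CPM in P14. The pseudogene copy Ftl1-ps1 had 23.3 to 87.6 CPM, so reads shared with Ftl1 may have been split between them, and the mitochondrial ferritin gene Ftmt had 0 UMIs.

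Slc40a1 (ENSMUSG00000025993, chr1:45908068-45926523), the exporter, was below its adult control level in PHx24 and PHx48, and above it in P14. Its level was 61.0 CPM (56.9 to 65.3) in the adult control, 27.1 (24.8 to 29.5) in PHx24, 31.2 (28.9 to 33.7) in PHx48, 84.2 (79.4 to 89.3) in PHx96 and 125.9 (123.1 to 128.6) in P14. The levels of PHx24 and PHx48 overlap in their intervals and lie lowest, 2.25-fold (2.01 to 2.51) and 1.95-fold below the adult control, whereas P14 lies 2.06-fold above it (1.92 to 2.22). In PHx96 the exporter was 1.38-fold above the adult control and, on the log2 scale, 1.40 above PHx48. Free RNA held 58.7 CPM of Slc40a1 in the adult control, within the interval of the hepatocytes there. It held 15.6, 15.3 and 35.5 CPM after PHx and 94.4 CPM in P14. Taking the free RNA of 1 droplet off each cell left log2 ratios of -1.12, -0.94, 0.49 and 1.03 in PHx24, PHx48, PHx96 and P14. At 5000 UMIs per cell, 19.8% (17.3 to 22.5) of adult control hepatocytes had an Slc40a1 UMI, against 9.74% (8.10 to 11.6) in PHx24, 12.4% (10.1 to 15.01) in PHx48, 27.5% (24.4 to 30.8) in PHx96 and 38.6% (36.5 to 40.7) in P14. Without thinning these shares were 53.8%, 33.8%, 53.8%, 69.6% and 94.2%, so the lower share in PHx48 appears only at equal depth. T or NK-like cells gave thinned shares of 1.11% to 6.82%, below every hepatocyte library. Other classes, described below, were not lower in this way. Neutrophil-like cells gave 38.6% to 63.3% in the libraries with at least 20 such cells of 5000 UMIs or more. Endothelial-like cells gave 40.6% in PHx24 and 45.0% in PHx48.

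Macrophages express Slc40a1 strongly, so their markers were read in the same hepatocytes. The 9 Kupffer cell markers summed to 8.03 CPM in the adult control with all 9 detected, 1.02 CPM in PHx24 with 8, 0.960 CPM in PHx48 with 7, 0.670 CPM in PHx96 with 5 and 0.898 CPM in P14 with 8. Timd4 was at 0 in PHx24, PHx48 and PHx96 and in P14, and Clec4f at 0 in PHx48 and PHx96. The 7 neutrophil markers went the other way, from 11.2 CPM in the adult control to 102.3 in PHx24, 190.4 in PHx48, 21.9 in PHx96 and 27.6 in P14, with Il1r2 at 0 in the adult control and in PHx96. The 9 endothelial markers summed to 10.5 to 21.3 CPM, highest in the adult control. The 8 erythroid markers summed to 739.5 CPM in the adult control, 522.4, 762.5 and 331.3 CPM after PHx and 124.6 CPM in P14. The part of these transcripts in the results was not tested. The settings that follow cannot decide it, since a cell can carry such transcripts without a UMI of markers at these low levels. Without hepatocytes that held a UMI of another class's defining markers, the log2 ratio of Slc40a1 in PHx24 was -1.25 over 252 cells, and -1.14 over all cells. In PHx48 that setting left 8 cells and a ratio of -0.54, no longer past 1.5-fold.

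**Figure D2:**
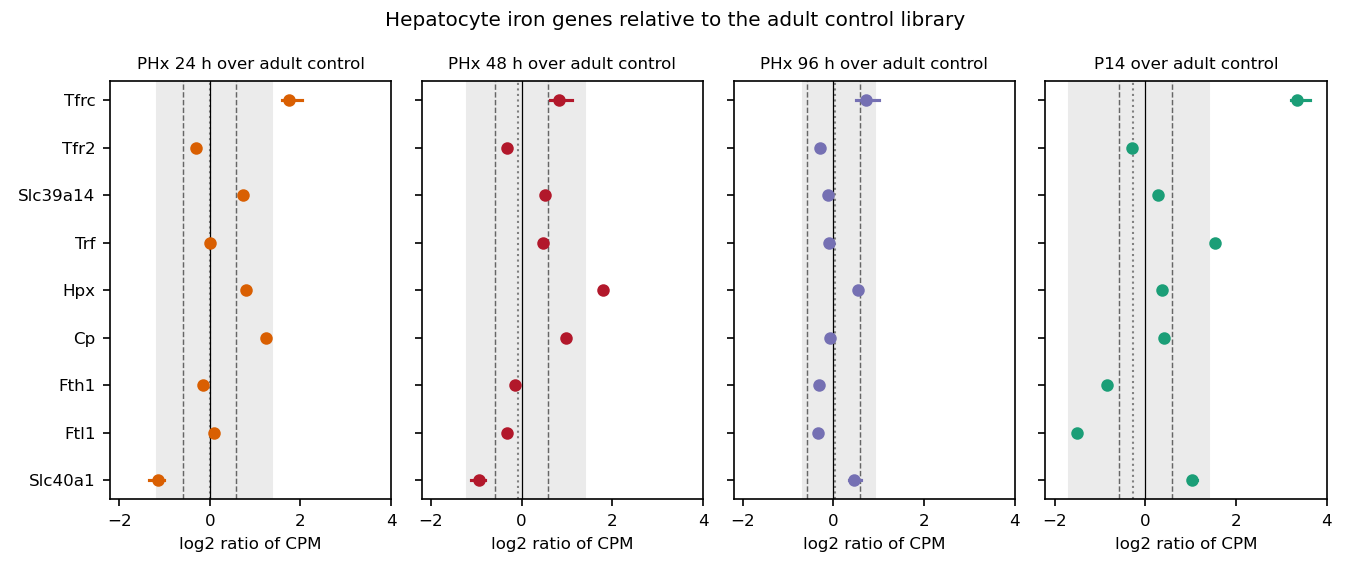
Log2 ratio of each gene's CPM over the adult control, 1 panel for each library. Lines are exact 95% counting intervals of the plain ratio, dashed lines mark 1.5-fold, the dotted line is the median of all genes and the grey band holds their middle 90%. Tfrc in PHx24 and P14, Hpx in PHx48 and Trf in P14 lie above the band, and Slc40a1 is the lowest of the 9 genes in PHx24 and PHx48.

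Counted against all genes, the 9 genes differed in both directions. In PHx24, 4 of 9 were past 1.5-fold higher than the adult control (Tfrc, Slc39a14, Hpx and Cp), against 19.0% of 9028 genes, and 1 was lower (Slc40a1), against 17.4%. In PHx48, 3 were higher (Tfrc, Hpx and Cp), against 17.4%, and 1 lower (Slc40a1), against 19.6%. In PHx96 only Tfrc was past the threshold on the higher side (12.3% of all genes) and 0 of 9 on the lower side (6.92%). The single call in PHx96 was lost when the lower mitochondrial limit was dropped, which gave a log2 ratio for Tfrc of 0.25, and with a pseudocount of 10 CPM. In P14, 3 genes were higher (Tfrc, Trf and Slc40a1), against 14.3%, and 2 lower (Fth1 and Ftl1), against 31.2%, so the 2 ferritin calls do not exceed the share of all genes. Under TMM scaling the P14 counts were 6 higher, with Slc39a14 (0.63), Hpx (0.71) and Cp (0.76) added, and 1 lower, with Fth1 lost. TMM also shifts the median log2 ratio of all genes in P14 from -0.26 to 0.08. The shares of 14.3% and 31.2% therefore do not apply to these TMM counts, which are given without a share. The median log2 ratio of the 9 genes and of all genes was 0.09 and 0.00 in PHx24, 0.48 and -0.08 in PHx48, -0.09 and 0.04 in PHx96, and 0.37 and -0.26 in P14.

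Between successive times after PHx, Hpx was the 1 gene of 9 past 1.5-fold higher in PHx48 than in PHx24 (5.13% of all genes) and Tfrc the 1 lower (7.01%). From PHx48 to PHx96, Slc40a1 was the 1 gene higher (13.9%), and Slc39a14, Hpx and Cp were lower (8.35%), with log2 ratios of -0.64, -1.27 and -1.05. Trf lay just within the threshold at -0.57 and passed it under 5 of 13 alternatives, at -0.83 with Alb, Apoa1 and Ttr at 3% or more. These comparisons share libraries with those above and are not independent of them.

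Liver lobules are zoned from the portal vein, where blood enters, to the central vein. Hepatocytes of each library were ranked by a score of pericentral minus periportal genes, none of them among the 9, and the cells at the 2 ends of the score (from 240 to 702 at each end) were compared. The cells form a continuum, with 34 to 210 cells per library within 0.1 score units of either limit. Hpx was higher at the periportal end in 5 of 5 libraries: 5777 against 2203 CPM in the adult control, 9782 against 4576 in PHx24, 18309 against 10311 in PHx48, 8320 against 3548 in PHx96 and 6277 against 4509 in P14. These are 2.62-fold, 2.14-fold, 1.78-fold, 2.35-fold and 1.39-fold differences in that order. The excess of Hpx in PHx48 was present at both ends, since the pericentral end in PHx48 lay above the periportal end of the adult control.

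Tfrc showed the same side in 5 of 5 libraries, with 22.5 periportal against 9.62 pericentral CPM in the adult control, 62.8 against 44.6 in PHx24, 36.4 against 16.9 in PHx48, 31.7 against 21.4 in PHx96 and 181.8 against 140.4 in P14. Trf was higher at the periportal end in the 4 adult libraries, by 1.37-fold in the adult control, and on the other side in P14, with 24502 periportal against 29286 pericentral CPM. Ftl1 leaned to the pericentral end in PHx96, with 6239 against 3872 CPM, and differed by at most 0.27 on the log2 scale elsewhere. Tfr2 and Slc39a14 differed between the ends by at most 0.24 on the log2 scale in any library, and Slc40a1 by at most 0.27. Over all genes the median log2 difference between the ends was -0.06 to 0.13. The median depths of the ends were within 1.2 times of each other except in PHx96, where they were 26118 pericentral and 19123 periportal UMIs.

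**Figure D3:**
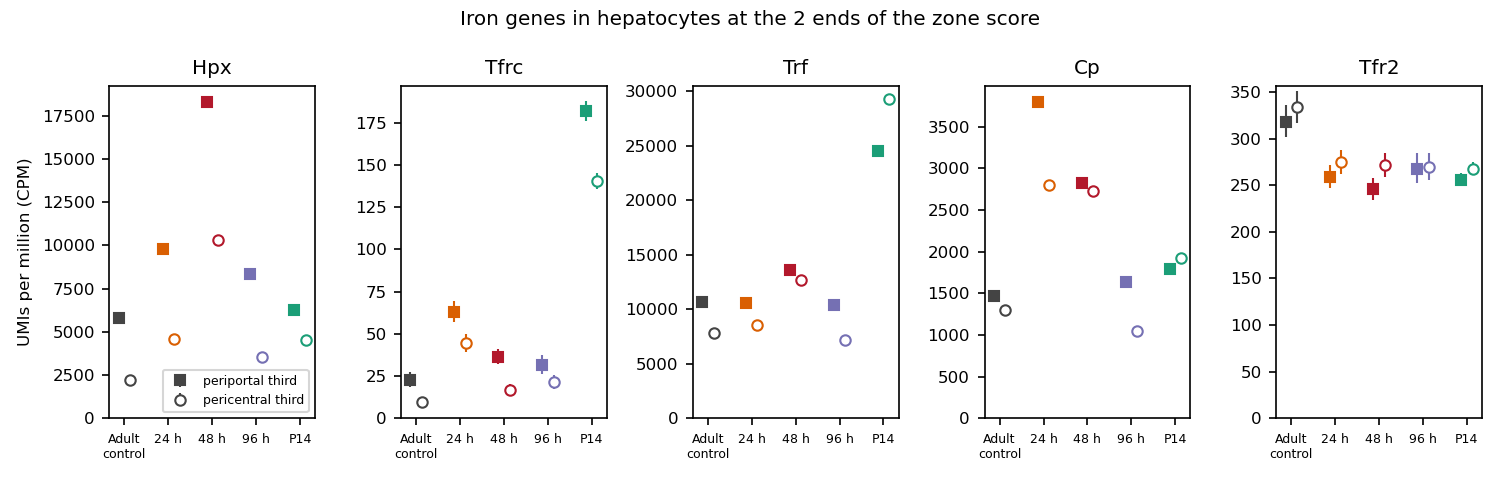
Levels (CPM) of 5 genes in hepatocytes at the periportal (filled squares) and pericentral (open circles) end of the zone score, for each library, with exact 95% Poisson intervals. Hpx and Tfrc are higher at the periportal end in all 5 libraries. Trf and Cp are higher there in the 4 adult libraries, but by only 1.08-fold and 1.03-fold in PHx48. In PHx96 Cp is 1.57-fold higher there. Tfr2 differs little, with the pericentral end 1.10-fold higher in PHx48.

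Dividing hepatocytes were set against non-cycling ones of the same library, in PHx24 (146 mitosis-positive against 388 cells), PHx48 (284 against 204), PHx96 (61 against 520) and in P14 (248 against 1278). In PHx24, PHx48, PHx96 and in P14, 81, 41, 35 and 59 cells lay 1 gene short of the mitosis class. Cp was lower in mitosis-positive cells in 4 of 4 libraries: 2454 against 3627 CPM in PHx24, 2236 against 3378 in PHx48, 960.1 against 1455 in PHx96 and 1576 against 1919 in P14. Trf and Tfr2 were also lower in 4 of 4, with log2 differences of -0.54 to -0.21 and -0.38 to -0.28. Slc39a14 was lower in 4 of 4 as well, by -0.35 to -0.08. Ftl1 was on the other side in 4 of 4, by 0.19 in PHx24, 0.16 in PHx48, 0.62 in PHx96 (6652 against 4333 CPM) and 0.15 in P14. The median of all genes in the same contrasts was 0.16, 0.21, 0.23 and 0.25, so Ftl1 lay clearly above it in PHx96 alone. Hpx differed by -0.60 in PHx24, -0.07 in PHx48, -0.75 in PHx96 and -0.17 in P14, so the dividing cells of PHx48 had nearly the Hpx level of non-cycling ones. Replication-positive cells, compared in PHx24, PHx48 and P14, differed from non-cycling cells by -0.19, -0.07 and 0.00 for Cp and by -0.09, -0.13 and -0.05 for Tfr2, which for these 2 genes is less than in mitosis-positive cells. Tfrc, often tied to cell growth, was close in both states in PHx24 (53.6 against 52.3 CPM) and leaned higher in mitosis in PHx48 (29.8 against 22.7), PHx96 (32.1 against 25.6) and P14 (194.8 against 159.5), with intervals that overlap in PHx48 and PHx96. These Tfrc differences, 0.38, 0.32 and 0.29 on the log2 scale, are near those medians of all genes. Median depth was higher in mitosis-positive cells in PHx24, PHx48 and PHx96 (26375, 41820 and 28914 UMIs against 18944.5, 33143 and 20898), and the part of depth in these differences was not tested.

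The same libraries held other cells, clustered without the iron genes and named from fixed markers. The classes were T or NK-like (led by Cd8b1 and Il7r in the main cluster), B-like (Cd79a and H2-Eb1, or Vpreb3 and Vpreb1 in P14), endothelial-like (Aqp1 and Ptprb), neutrophil-like (Retnlg and S100a9), monocyte or dendritic-like (Siglech and Cox6a2, or Ms4a6c and Lyz2) and erythroid-like (led by globins such as Hba-a1 and Hbb-bt). No cluster was named macrophage. Slc40a1 was high in neutrophil-like cells, at 220.8 CPM in the adult control, 144.0, 149.6 and 340.3 after PHx and 158.8 in P14, and in endothelial-like cells, at 201.1 CPM, then 75.8, 157.2 and 132.0, and 77.1 in P14. In P14 the hepatocytes lay above the endothelial-like cells, whose interval overlaps that of the 22 Ms4a6c-led cells (86.1 CPM, 63.3 to 114.5), of which 27.3% had an Slc40a1 UMI. Endothelial-like cells thus had less Slc40a1 in P14 (46.4 to 120.4) than in the adult control (139.3 to 281.0), the opposite order from hepatocytes, although they numbered 28 and 38 cells. With the free RNA of 1 droplet taken off each cell, these levels were 76.1 and 259.5 CPM. Their level in PHx24 (50.8 to 108.9) also lay below the adult control, as in hepatocytes.

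Among the other cells, Tfrc was highest in the Siglech-led cluster, with 55.5 CPM in the adult control and 143.7, 137.3 and 212.4 CPM in PHx24, PHx48 and PHx96, from 44 to 126 cells. The Vpreb3-led B-like cells of P14, led by genes of B-cell precursors, had 75.5 CPM, and the Cd79a-led B-like cells of the adult libraries 11.5 to 22.9 CPM. Globin-led erythroid-like cells had 1.78 to 16.9 CPM. The Siglech-led cells also held the most Fth1, with 8284 to 9150 CPM.

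Ferritin levels of P14 were also below the adult control in other cells, but these cells are shallow and free RNA takes up more of them in the adult control. Ftl1 stood at 1084 CPM in P14 against 2624 CPM in the adult control in T or NK-like cells, at 2086 against 3933 in endothelial-like cells and at 2652 against 7742 in neutrophil-like cells. Fth1 stood at 1721 against 2419, 1903 against 2821 and 3360 against 6917 CPM in the same 3 classes. The free RNA of 1 droplet came to 21.7%, 31.2% and 41.9% of the median cell in these classes in the adult control, and to 6.18%, 8.48% and 7.16% in P14. With it taken off each cell, a setting chosen after seeing the data, Ftl1 was 889.3 CPM in P14 against 1101 in T or NK-like cells and 1934 against 2058 in endothelial-like cells, so most of the difference in these 2 classes was gone. In neutrophil-like cells Ftl1 was then 2499 against 7189 CPM and Fth1 3138 against 8294. Fth1 was then 1472 against 1955 CPM in T or NK-like and 1649 against 2240 in endothelial-like cells.

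**Figure D4:**
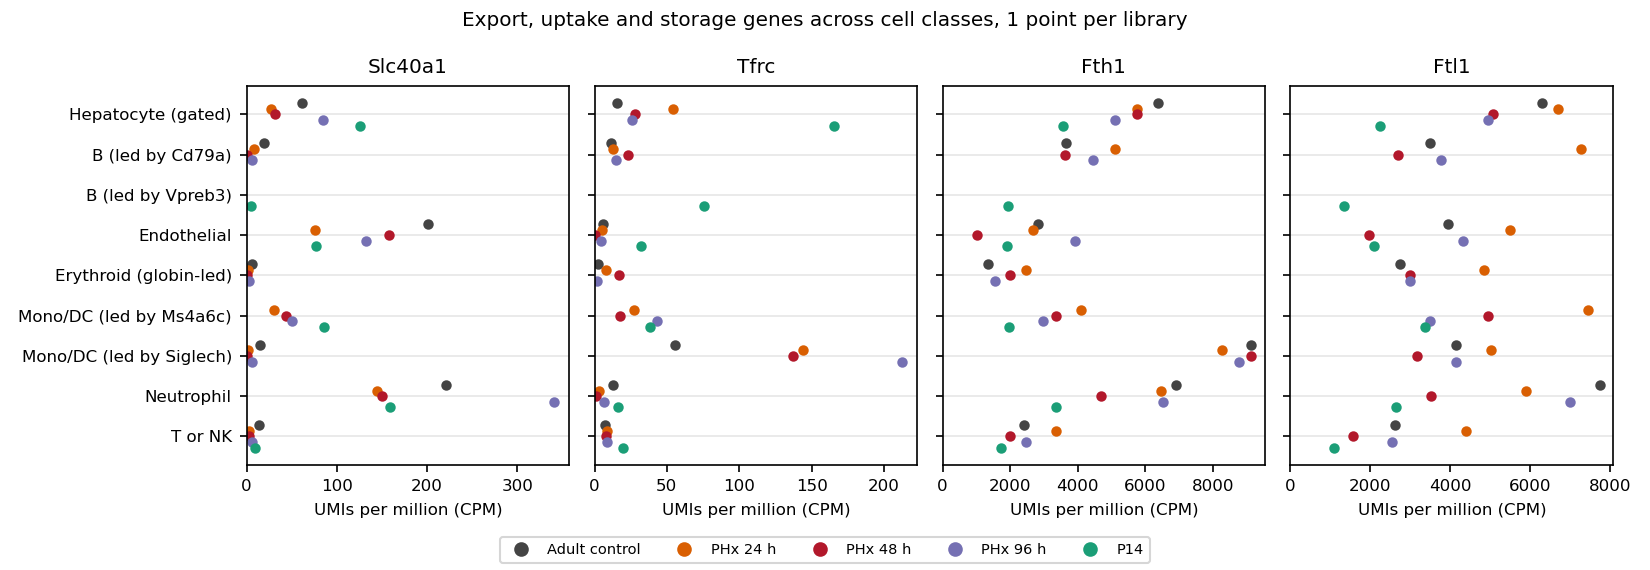
Levels (CPM) of Slc40a1, Tfrc, Fth1 and Ftl1 in gated hepatocytes and in each other class of at least 20 cells, 1 point for each library. Slc40a1 stands out in neutrophil-like and endothelial-like cells, Tfrc in P14 hepatocytes and the Siglech-led cluster, and the P14 points of Fth1 and Ftl1 lie below the adult control in every class that has both, with free RNA not taken off.

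The iron regulators of the hepatocyte were read from a list of 85 other iron and haem genes, also chosen with earlier results of these data known. In PHx24, 16 of 69 measured were past 1.5-fold higher than the adult control and 8 lower, beside 19.0% and 17.4% of all genes. In PHx48 these counts were 12 and 10 of 69 (17.4% and 19.6% of all genes), in PHx96 12 and 2 of 70 (12.3% and 6.92%), and in P14 8 and 31 of 69 (14.3% and 31.2%). The counts of higher genes in PHx24 and PHx96 and of lower genes in P14 lie somewhat above these shares. The other counts are near these shares or below them. The median log2 ratio of the list was 0.08, -0.16, 0.02 and -0.44 in that order, beside medians of 0.00, -0.08, 0.04 and -0.26 over all genes.

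Of the genes of hepcidin and its regulators, BMP receptors and Smads included, 4 of 16 measured were past 1.5-fold higher than the adult control and 2 lower in PHx24 (19.0% and 17.4% of all genes), 3 and 5 in PHx48 (17.4% and 19.6%), 3 and 1 in PHx96 (12.3% and 6.92%), and 0 and 8 of 15 in P14 (14.3% and 31.2%). Hamp was at 429.0 CPM in the adult control, 2188 in PHx24, 1114 in PHx48 and 1371 in PHx96, whereas P14 had 16 UMIs in 2106 hepatocytes (0.248 CPM). Its close copy Hamp2, whose reads may be shared with Hamp, was at 13.9, 5.12, 3.50 and 157.4 CPM in the adult libraries and 2.96 CPM in P14. In PHx24 and PHx48 Hamp was above the adult control and Slc40a1 below it, and in P14 Hamp was below it and Slc40a1 above it. These are levels of RNA, and the ferroportin protein that hepcidin closes was not measured. In PHx96 Hamp was past 1.5-fold above the adult control, whereas Slc40a1 was not, with a log2 ratio of 0.46 that was 0.09 without the lower mitochondrial limit. Tmprss6, a protease that restrains hepcidin, was at 355.0 CPM in the adult control and 143.8 and 150.4 in PHx24 and PHx48, then 250.0 in PHx96 and 257.8 in P14. Id1, a target of BMP signalling, was at 3.00 CPM in the adult control and 75.1, 11.04 and 11.8 after PHx. Smad1, a mediator of the same pathway, was at 30.9 CPM in the adult control, 75.2 in PHx24 and 13.4 in P14. Hfe (32.6 against 12.98 CPM) and Furin (171.1 against 65.4 CPM) were more than 2-fold lower in P14 than in the adult control.

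Of the genes that salvage haem and haemoglobin, 5 of 10 measured were past 1.5-fold higher than the adult control and 1 lower in PHx24 (19.0% and 17.4% of all genes), 3 and 1 in PHx48 (17.4% and 19.6%), 3 and 0 of 11 in PHx96 (12.3% and 6.92%), and 4 and 2 of 11 in P14 (14.3% and 31.2%). Hp, which binds free haemoglobin, was highest in PHx48 like Hpx, with 3126 CPM in the adult control, 5359 in PHx24, 8247 in PHx48, 2440 in PHx96 and 4624 in P14. Ambp, precursor of a haem-binding plasma protein, was at 903.9 CPM in the adult control and at 1796, 2563 and 1664 after PHx, with 2628 in P14. Hmox1, which opens the haem ring, was at 7.36 CPM in the adult control, 19.0 in PHx24, 5.62 and 6.77 in PHx48 and PHx96, and 1.90 in P14. Blvra, which turns biliverdin into bilirubin, was at 6.01 CPM in the adult control and at 15.4 and 13.4 CPM in PHx48 and PHx96. Flvcr2, a transporter first described for haem, was at 2.48 CPM in the adult control and 9.37 in P14. The second enzyme of haem synthesis, Alad, was 57.7 CPM in the adult control and 129.6, 168.7, 132.4 and 125.9 CPM in PHx24, PHx48, PHx96 and in P14. Urod, a later enzyme, was at 27.8 CPM in the adult control and 64.2 in P14, and the last enzyme, Fech, at 206.1 and 98.1 CPM. The mitochondrial transporter Abcb10 was lower in PHx48 (19.4 CPM) and in P14 (11.4 CPM) than in the adult control (44.1 CPM).

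Other genes past 2-fold concern entry, storage and binding. Lcn2, which binds bacterial siderophores, was at 72.3 CPM in the adult control, 4874 in PHx24, 3307 in PHx48, 229.4 in PHx96 and 51.3 in P14. Lcn2 is also a granule gene of neutrophils, and the 7 neutrophil markers in the same hepatocytes summed to 11.2, 102.3, 190.4, 21.9 and 27.6 CPM in that order of libraries. Both were far higher in PHx24 and PHx48 than in the adult control, with Lcn2 highest in PHx24 and the markers in PHx48, and the part of neutrophil transcripts in the Lcn2 level was not tested. Bdh2, linked to a mammalian siderophore, was at 14.6, 7.02, 5.81, 28.1 and 2.29 CPM in that order. The metalloreductase Steap4 was at 232.3 CPM in the adult control, 713.8 in PHx24, 458.2 in PHx48, 133.9 in PHx96 and 66.8 in P14. The ferritin receptor Scara5 had 189 UMIs in the adult control and 1 in P14. Lower in P14 were also Ncoa4, which delivers ferritin for breakdown (103.8 against 40.3 CPM), Ireb2, iron-regulatory protein 2 (80.4 against 35.1 CPM), and the mitochondrial iron importer Slc25a37 (29.9 against 8.78 CPM). Fdx1, a ferredoxin, was at 190.0 CPM in the adult control and 385.6 CPM in PHx96.

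For each of the 9 genes, the 3 genes with the most similar course were those with the smallest root mean square difference of centred log2(CPM + 1) over the 5 libraries, among genes of at least 20 CPM in some library. Tfrc lay nearest to Morc4, Pls1 and Cbr1, at 0.30 to 0.40, the loosest match of the 9. Hpx lay nearest to Tuba1c, Ckap5 and Jpt1 (0.10 to 0.12), of which the first and second encode a tubulin and a microtubule-binding protein. Slc40a1 lay nearest to Oxld1, Serpinf1 and Fam20a (0.15 to 0.19), Cp to Rfc2, Cbx5 and Sept11 (0.14 to 0.17), and Trf to 1810058I24Rik, Hacl1 and C3 (0.10 to 0.20). The nearest genes were Cep85l, Myo1c and Casp8 for Slc39a14 (0.04 to 0.07), Ncln, Stk16 and Slc39a8 for Tfr2 (0.03 to 0.04), Gabarap, Snd1 and Nr1h3 for Fth1 (0.03 to 0.05), and Fgfr1op, Midn and Etnk1 for Ftl1 (0.04 to 0.06). With 5 points each, such matches describe these libraries only.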

How the data were processed

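Per the labels' protocols, liver cells were released by 2-step perfusion, cleared of dead cells, and made into 10x v3 libraries. The authors deposited raw UMI counts per gene and barcode for each library, empty droplets included. The submitters' processing notes name bcl2fastq 2.17.1.14, Cell Ranger, Seurat 3.1 and mm10, and the file headers software 3.0.2. How these bear on each count is not given in the sources used here. The gate, CPM, thinning and free-RNA profile are described with the results. CPM ratios had a pseudocount of 1 and a minimum of 5 CPM, and were tested on simulated data for PHx24 over the adult control (8544 genes). There 100 of 100 raised and 100 of 100 lowered genes of 2-fold were recovered and 4 unchanged genes were called. The simulated counts were Poisson draws from the adult control profile, with no variation between animals, libraries or cells. Only genes more abundant there than Tfrc were changed. The simulation thus checks the calculation and gives no rate of false calls for these libraries.

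For the other cell classes, 19364 barcodes of at least 2000 UMIs, 500 genes and under 30% mitochondrial UMIs were clustered with scanpy 1.11.5 (Scrublet doublet scores, highest 0.8% per 1000 barcodes up to 8% removed; 2000 variable genes without iron genes, 30 components, 15 neighbours, Leiden resolution 1.0). A class name needed 3 of its markers among the 50 leading genes, and 14 of 34 clusters were named. Doublets stayed in the gated hepatocytes, with their removal as an alternative. Mitosis-positive cells had UMIs of at least 3 mitosis genes at 5000 UMIs, and non-cycling cells of 0 mitosis genes and at most 1 replication gene. TMM factors came from edgeR 4.0.16. Named genes were all 9 members, listed iron genes past 2-fold of the adult control, the 3 nearest genes of each member, and 2 leading genes of each class. The 9 genes and all lists were chosen with earlier results of these data known.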

Additional observations from a re-analysis of the deposited data

How the results depend on the processing

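Of the 54 log2 ratios (9 genes, 6 library pairs), 21 were past 1.5-fold, and these kept their direction under all 13 alternatives, 17 of them also their call. The other 4 were Tfrc in PHx96, Slc40a1 in PHx48 and Fth1 in P14, each over the adult control, and Hpx in PHx48 over PHx24. Of the other 33, 15 changed sign under some alternative. Among the alternatives, leaving out the minimum of 5 CPM could change neither these ratios nor the counts below, since all 9 genes lie above it. Counts of genes past the threshold stayed within 1.5 times in 146 of 156 recomputations. The others follow. In PHx96 over the adult control, higher genes numbered 0 without the lower mitochondrial limit, 2 with a mitochondrial window of 10% to 20%, and 0 with a pseudocount of 10 CPM, and lower genes 2 without the lower limit. In P14, TMM scaling gave 6 higher and 1 lower. For PHx48 over PHx24, higher genes numbered 0 with Alb, Apoa1 and Ttr at 3%, and without hepatocytes holding another class's marker there were 2 higher and 3 lower. That same setting gave 2 higher for PHx96 over PHx48, where it rests on 8 cells in PHx48. These recomputed counts are given without the share of all genes in the same setting. They show only how the calls of the 9 genes moved. The cause of these changes was not tested. Leaving out hepatocytes clustered with another class, and taking free RNA off the other cell classes, were added after seeing the data. No paired analysis was possible because each group has 1 library, and no replicate could be left out. Depth limits Tfrc and Slc40a1 most, with under 1 UMI per adult control hepatocyte.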
